A study of Mus musculus with 2 samples.

Results

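The genes described here encode the proteins of the mitochondrial ribosome. They were taken by symbol as every gene named Mrpl or Mrps followed by a number and at most 1 letter, which gave 77 of the 27998 genes listed, 48 of the large subunit (Mrpl) and 29 of the small subunit (Mrps). They were read in single-cell RNA sequencing libraries of CD8+ T cells from the spleen and lymph nodes of OT-I mice, whose transgenic T cell receptor recognises the ovalbumin peptide SIINFEKL. All cells were activated with that peptide for 48 h with 100 U/ml interleukin-2. Expansion medium followed, with a 20 h exposure to control conditions (11 mM glucose, control) or to transient glucose restriction (1 mM glucose, TGR). The sample descriptions give a growth period of 3 days instead, and whether full glucose was given back before capture is not stated in the sources used here. Each condition is 1 library, and how many mice it pooled is not given in the sources used here. Condition and library therefore cannot be told apart, no difference has a replicate check, and no p-value is given.

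The mitochondrial ribosome sits in the mitochondrial matrix and translates the 13 messages of mitochondrial DNA, all of which encode subunits of the respiratory chain and ATP synthase. Its ribosomal RNAs come from mitochondrial DNA, whereas its proteins are encoded in the nucleus, made on cytosolic ribosomes and imported. The small subunit reads the message and the large subunit forms peptide bonds. Activated CD8+ T cells enlarge their mitochondria as they begin to divide, and mitochondrial protein synthesis is known to be needed for their effector functions.

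Cells with at least 500 genes and under 10% of unique molecular identifiers (UMIs) on mitochondrially encoded genes were kept, 3127 of 3336 control and 2546 of 2548 TGR barcodes, with 14730128 and 19696068 UMIs. The median depth was 4030 UMIs (1385 genes) per control cell and 6265.5 UMIs (1676 genes) per TGR cell. Of the barcodes kept, 9 occur in both libraries. The 9 CD8 T cell markers summed to 4670 CPM (counts per 1000000 UMIs of a library) in control and 3366 CPM in TGR with none at 0. All 3 dendritic cell markers were at 0 in both libraries, and the CD4 T cell, NK cell and erythroid lists each summed to under 3 CPM. The B cell list summed to 25.9 and 18.3 CPM, and the myeloid list to 124 and 65.3 CPM (Lyz2 at 0 in TGR). The part of these cells in the results was not tested. In the median control cell 40.1% of UMIs lay on cytosolic ribosomal protein genes, and in the median TGR cell 49.9%, which bears on every CPM value that follows.

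The sequences shown first are stretches before the RefSeq start of members, because the members that carried a binding sequence of NRF1 there had another median ratio between the libraries than those that did not. NRF1 (nuclear respiratory factor 1) is a transcription factor known to bind promoters of nuclear genes for mitochondrial proteins. Its sequence was searched on both strands as GCGCA, any base, then GCGC in the 250 bases before the RefSeq start (GRCm38.p6) of the 68 members with an entry. It was found in 10 members, and a window of 30 bases around 1 match of each follows, 5′ to 3′ on the gene's strand, with the match in capitals. They are ordered from the highest to the lowest ratio of TGR over control. In 8 members a match lay before the GENCODE gene start too, whereas the matches of 2, Mrpl32 and Mrpl39, lay inside the GENCODE gene.
Mrpl9 (chr3:94443298-94443327, plus strand): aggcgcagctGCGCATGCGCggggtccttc
Mrpl32 (chr13:14613105-14613134, minus strand): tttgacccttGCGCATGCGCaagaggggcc
Mrpl45 (chr11:97315586-97315615, plus strand): gaagcctcctGCGCAGGCGCagctggctct
Mrpl44 (chr1:79775973-79776002, plus strand): agaagcacttGCGCACGCGCagtacactag
Mrpl30 (chr1:37890384-37890413, plus strand): tgacgccgctGCGCCTGCGCtgtcttctat
Mrpl39 (chr16:84735350-84735379, minus strand): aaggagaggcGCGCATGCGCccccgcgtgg
Mrpl57 (chr14:57826172-57826201, plus strand): tttgaatcctGCGCAGGCGCagaaggcgtc
Mrpl17 (chr7:105811117-105811146, minus strand): aggctctgatGCGCACGCGCaaacgcggta
Mrps21 (chr3:95871586-95871615, minus strand): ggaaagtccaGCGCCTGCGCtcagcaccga
Mrpl12 (chr11:120484546-120484575, plus strand): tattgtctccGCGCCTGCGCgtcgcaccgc
The letters occurred in 14.7% of the matched members, in 3.86% of all 27025 promoters of that table and in 1.54% of the 65 cytosolic ribosomal protein genes matched. Of 5118 other genes with an entry and at least 10 CPM in either library, 537 held them, a larger share than among all promoters. Such a match is a description of letters and not a binding site shown to be in use.

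Most members were lower in the TGR library. A gene was scored when it had at least 10 CPM in either library, and called lower or higher at 1.5-fold when the 95% interval of its ratio excluded 1, an interval that covers counting error only. Of the 77 members 74 were scored, 42 were lower and 1 was higher. Over all 6667 scored genes 21.8% were lower and 9.33% higher. The members' median log2 ratio of TGR over control was −0.71, a 1.64-fold lower level, beside −0.16 over all scored genes. Summed over all 77, the members had 9322 CPM in control and 5893 CPM in TGR, a log2 ratio of −0.66. The scored members below a ratio of 1 numbered 66, and 8 lay above it.

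The totals behind these values matter, since the cytosolic ribosomal protein genes took a larger share in TGR. With those genes and the mitochondrially encoded ones left out of the totals, every ratio moved up by 0.26 on the log2 scale. Then 54 of the 74 members lay below a ratio of 1 and 12 changed sign. On that scale 22 of 76 scored members were lower and 2 higher, against 10.1% lower and 23.0% higher among all genes. The medians were −0.45 for members and 0.17 for all genes. The members' median lay below that of all genes by a log2 difference of −0.56 on the first scale and −0.62 on the second. Since every ratio moves by the same amount, this difference can change only with which genes are scored. The second value is therefore no separate check of the first.

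The 3 members under 10 CPM were Mrps27 with 103 UMIs in control and 116 in TGR, Mrps31 with 126 and 160, and Mrpl53 with 1 and 3. No ratio between the libraries is read from them here.

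**Figure D1:**
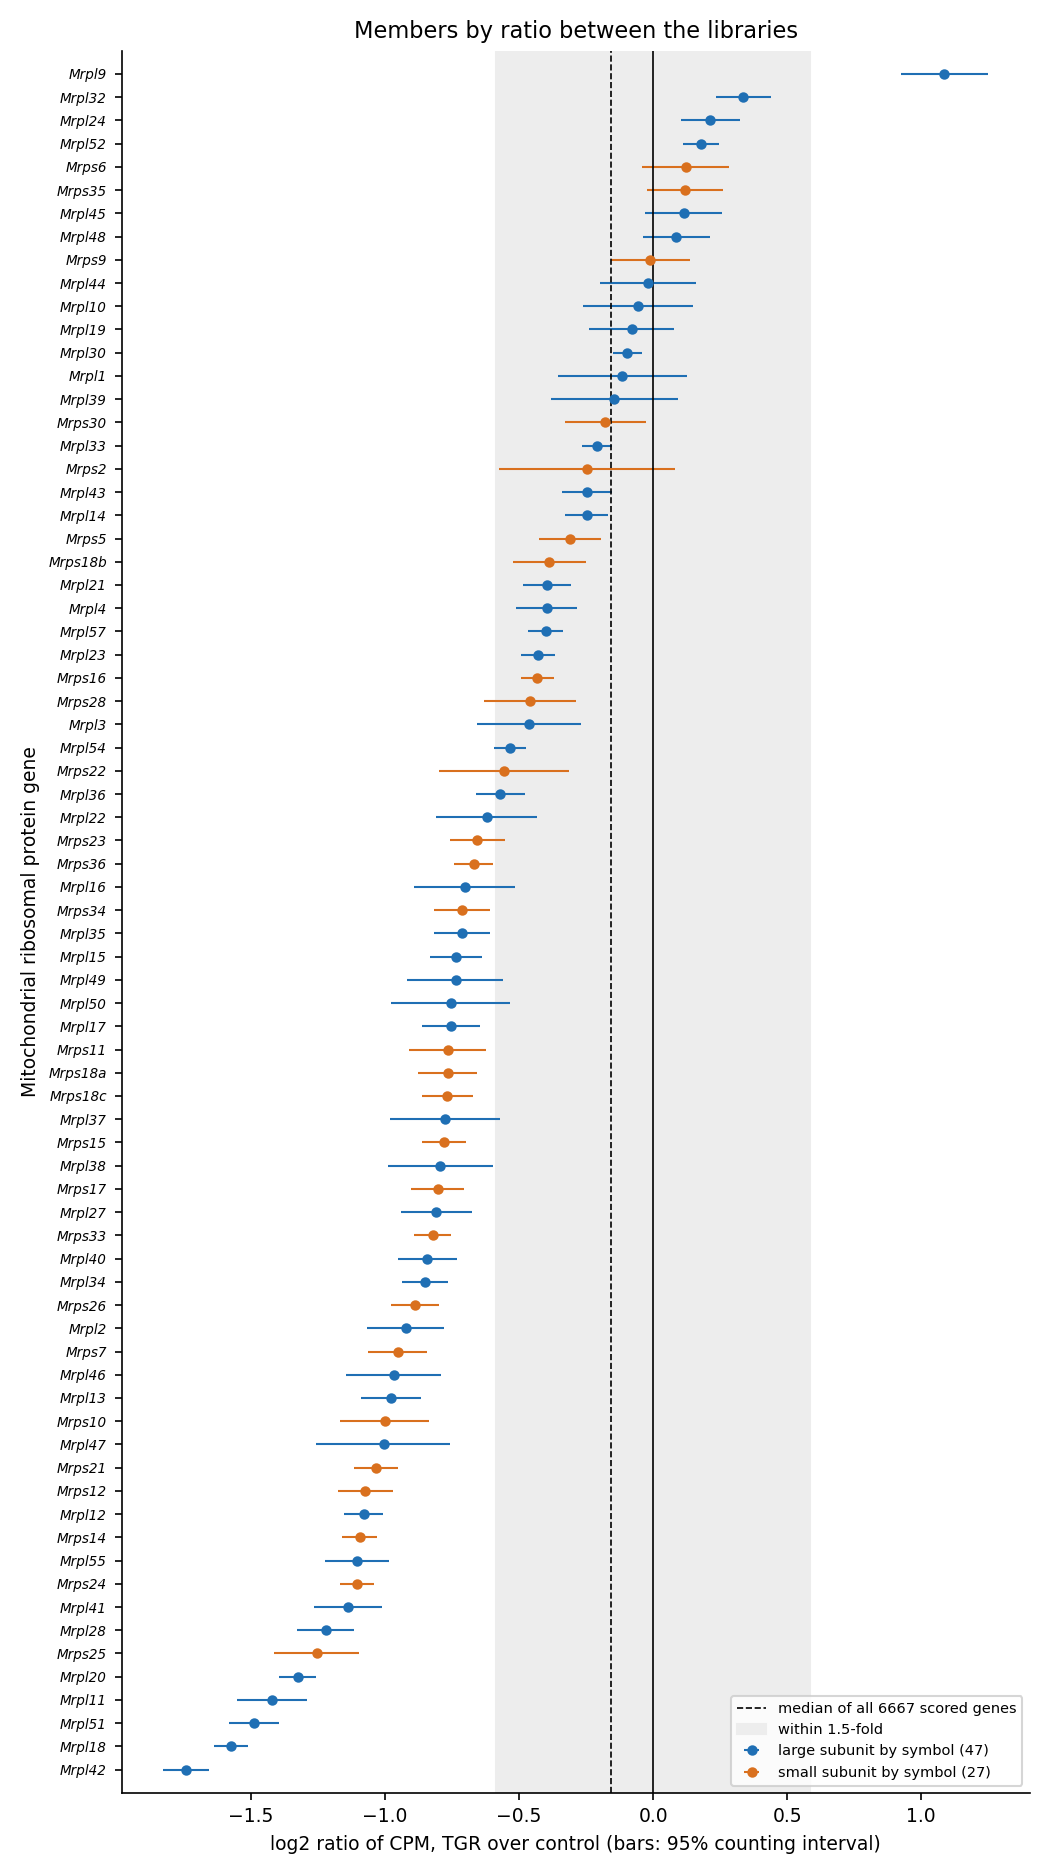
The log2 ratio of CPM in TGR over control (x axis) of each of the 74 scored members (y axis), with bars for the 95% counting interval, blue for large and orange for small subunit symbols. The points run from Mrpl42 at −1.74 to Mrpl9 at 1.09, and 66 of 74 lie left of 0, most of them also left of the dashed median of all scored genes (12 members change sign under totals without ribosomal protein and mitochondrial genes).

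The lowest ratio was that of Mrpl42, a large subunit protein with no bacterial counterpart (chr10:95480805-95501940, minus strand). It had 3776 UMIs or 256 CPM in control and 1510 UMIs or 76.7 CPM in TGR, 3.34-fold lower (interval 3.15 to 3.55). Mrpl18, a protein of the central protuberance, the crest of the large subunit, went from 451 to 152 CPM and was 2.98-fold lower (2.85 to 3.11). Both intervals lie above the members' median of 1.64-fold.

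Mrpl51, also without a bacterial counterpart, had 198 CPM in control and 70.6 CPM in TGR, a log2 ratio of −1.49. Mrpl11, at the base of the stalk that recruits elongation factors, had 95.9 and 35.8 CPM (−1.42). Mrpl20, whose bacterial counterpart is needed early in large subunit assembly, had 329 and 131 CPM (−1.32). The control level of these 3 was 2.80-, 2.68- and 2.50-fold that of TGR.

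The next in order were Mrps25, a small subunit protein specific to mitochondria, with 61.6 CPM in control and 25.8 CPM in TGR (−1.25). Mrpl28 had 134 and 57.3 CPM (−1.22), and Mrpl41 had 90.8 and 41.3 CPM (−1.14). Of the 8 lowest members 7 belong to the large subunit, as do 6 of the 8 highest. The other 34 lower members had log2 ratios between −1.10 (Mrps24) and −0.62 (Mrpl22).

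Mrpl9, the counterpart of bacterial ribosomal protein L9 in the large subunit (chr3:94443318-94451130, plus strand), was the exception. It had 419 UMIs or 28.4 CPM in control and 1190 UMIs or 60.4 CPM in TGR, 2.12-fold higher (1.90 to 2.38). It was higher under each scaling tried. Oaz3, the gene annotated across it on the opposite strand, had 0 UMIs in both libraries.

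The remaining members at the upper end did not reach 1.5-fold. Mrpl32, which is matured by a protease of the inner membrane before it joins the large subunit, had 83.4 CPM in control and 105 CPM in TGR (0.34). Mrpl24, near the polypeptide exit, had 75.8 and 87.9 CPM (0.21). Mrpl52, in the central protuberance, had 203 and 229 CPM (0.18). The counting intervals of these 3 excluded a ratio of 1.

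Mrps6, Mrps35, Mrpl45 and Mrpl48 had log2 ratios of 0.12, 0.12, 0.11 and 0.09, with intervals that held a ratio of 1. Mrpl45 helps to hold the ribosome at the inner membrane. In all 31 scored members were neither lower nor higher, of which 24 lay below a ratio of 1 and 7 above.

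The promoters of the members at both ends of the order are shown for comparison, as the bases before the annotated start, cropped so that no transcribed base is included. Capitals mark matches on either strand to the searched motifs, the NRF1 letters in Mrpl9 and the CCAAT box, read from the other strand, in Mrpl42.
Mrpl9 (chr3:94443086-94443317, plus strand): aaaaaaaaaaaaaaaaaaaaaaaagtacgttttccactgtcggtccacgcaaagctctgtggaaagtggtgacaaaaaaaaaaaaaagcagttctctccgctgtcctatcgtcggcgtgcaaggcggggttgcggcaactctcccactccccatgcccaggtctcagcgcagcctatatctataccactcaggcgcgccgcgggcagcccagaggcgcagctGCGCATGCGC
Mrpl42 (chr10:95501950-95502199, minus strand): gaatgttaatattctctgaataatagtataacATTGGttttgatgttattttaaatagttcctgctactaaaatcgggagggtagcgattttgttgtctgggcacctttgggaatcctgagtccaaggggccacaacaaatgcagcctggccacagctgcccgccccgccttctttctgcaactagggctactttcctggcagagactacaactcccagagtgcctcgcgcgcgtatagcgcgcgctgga
Of the 8 members with the highest ratios 7 had a promoter entry and 3 of these held the NRF1 letters in the 250 bases before the RefSeq start (Mrpl9, Mrpl32 and Mrpl45), 2 of them also before the GENCODE start (not Mrpl32). None of the 8 members with the lowest ratios held the letters, and all 8 had an entry. The searched window did not always lie before the GENCODE start in these 8 either. That of Mrpl51 lay wholly inside the GENCODE gene, and that of Mrpl18 mostly or wholly inside its own. That of Mrpl11 had 91 bases before the start.

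Among the scored members with an entry, 3 of 10 with the NRF1 letters were lower (Mrpl12, Mrps21 and Mrpl17) and their median log2 ratio was −0.12. Of the 55 without the letters 35 were lower, with a median of −0.77. Counting only matches before the GENCODE gene start, a rule added after seeing the data, 3 of 8 with the letters were lower (median −0.25) and 35 of 57 without (−0.75). The other scored genes did not show such a distance, with 25.1% lower and a median of −0.24 for the 537 with the letters, and 21.2% and −0.15 for the 4581 without. These letters were 1 of 5 motifs searched, and no test was run on the difference. The 57 members counted as without under the GENCODE rule include some whose window lay wholly inside the GENCODE gene, such as Mrpl51, Mrpl47 and Mrpl35. No bases before the GENCODE start were searched in those. In others, such as Mrpl18, few or no such bases were searched.

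The other motifs split the members less. The letters of an ETS factor site (CCGGAAG) were in 16 members or 23.5%, against 7.05% of all promoters, and the scored members with and without them had medians of −0.76 and −0.71. The CCAAT box (CCAAT) was in 36.8% of members and 34.5% of all promoters, with medians of −0.77 and −0.68. The E-box CACGTG, which MYC and USF factors recognise, was in 5 members or 7.35%, against 6.05% of all promoters. The YY1 letters ATGGCGG were in 1 member. All promoters also cover genes that were not scored. Of the 5118 other scored genes with an entry, 909 held the ETS letters and 1889 the CCAAT box. The E-box was in 465 of them and the YY1 letters in 245. No match here says only that these letters are not in this window.

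**Figure D2:**
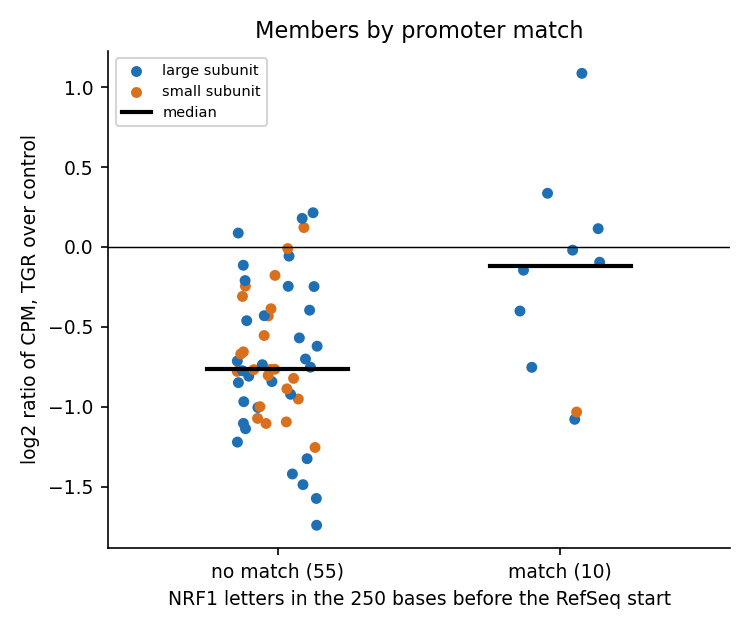
The log2 ratio of CPM in TGR over control (y axis) of scored members without (left) and with (right) the NRF1 letters in the 250 bases before the RefSeq start. Blue points are large and orange small subunit genes, and the bars mark the medians, −0.77 for 55 members and −0.12 for 10.

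Both subunits were lower by similar amounts. The large subunit members summed to 5895 CPM in control and 3859 CPM in TGR (log2 ratio −0.61), and the small subunit members to 3427 and 2034 CPM (−0.75). The large subunit had 25 lower members and 1 higher among 47 scored (median −0.70). The small subunit had 17 lower and 0 higher among 27 scored (median −0.77). The range was wider in the large subunit, from −1.74 to 1.09, than in the small, from −1.25 to 0.12.

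Symbols do not always give the place in the structure. Mrps30 and Mrps18a are part of the large subunit, and Mrps36 is an adaptor of the 2-oxoglutarate dehydrogenase complex and not a ribosomal protein. Mrps18a had 102 CPM in control and 59.9 CPM in TGR (−0.77), Mrps30 44.8 and 39.6 CPM (−0.18) and Mrps36 218 and 137 CPM (−0.67). Grouped by place, and with the mitoribosomal proteins of other symbols added, 27 of 51 large subunit genes were lower (median −0.63) and 17 of 28 small subunit genes (−0.74).

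The family of Mrps18a, Mrps18b and Mrps18c shows the spread among related members. Mrps18c, the counterpart of bacterial S18, had 137 CPM in control and 80.6 CPM in TGR (−0.77), as far apart as Mrps18a. Mrps18b had 60.1 and 46.0 CPM (−0.39), under 1.5-fold. Members with a bacterial counterpart and members found only in mitochondria had nearly the same medians, −0.72 with 26 of 46 lower and −0.71 with 15 of 27 lower.

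The stalk, which brings elongation factors to the ribosome, held members far apart. Mrpl12, which forms the stalk's tip, had 269 CPM in control and 128 CPM in TGR (−1.08), and Mrpl11 had −1.42. Mrpl10, the protein that anchors Mrpl12, had 23.8 and 22.9 CPM (−0.06), with an interval from −0.26 to 0.15.

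The counts by place in the ribosome stand beside 21.8% lower over all scored genes and 20.7% over other genes of the members' expression range. Each group is small. In 4 bands of that range, from the lowest to the highest mean CPM, 15.7%, 23.9%, 35.4% and 40.8% of other genes were lower. Proteins around the peptidyl transferase centre (Mrpl2, Mrpl3, Mrpl4, Mrpl15 and Mrpl16) had a median of −0.70, with 3 of 5 lower. In the central protuberance 6 of 8 were lower, with a median of −0.83. Around the polypeptide exit, where the new chain leaves towards the inner membrane, 3 of 6 were lower and the median was −0.53.

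In the head of the small subunit 4 of 6 were lower (median −0.98). Among them were Mrps14, with 323 CPM in control and 151 CPM in TGR (−1.09), and Mrps24, with 345 and 160 CPM (−1.10). In the body, which holds the decoding centre, 5 of 8 were lower (−0.77). There Mrps16 had 297 and 220 CPM (−0.43).

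Members with many UMIs, whose counting error is small, also differed among themselves. Mrpl30 had 335 CPM in control and 314 CPM in TGR (−0.10), Mrpl33 326 and 282 CPM (−0.21), and Mrpl57 262 and 199 CPM (−0.40). Mrpl23, at the polypeptide exit, had 279 and 207 CPM (−0.43) and Mrpl54 319 and 221 CPM (−0.53). The members did not share 1 ratio within counting error. The counting intervals of 19 of the 74 scored members held the members' own median, 24 lay below it and 31 above, while the median width of an interval on either side was 0.11 on the log2 scale.

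Genes of matched expression give the measure for these shares. The scored members' mean CPM ran from 9.32 to 325, and 6080 other genes lay in that range. Of these 20.7% were lower, with a median log2 ratio of −0.15, against 56.8% and −0.71 for the members. Only the range is matched there, and low values weigh more among the other genes. In 4 bands set at the quartiles of the members' mean CPM, the members that were lower came to 47.4%, 44.4%, 77.8% and 57.9% from the lowest band to the highest. For other genes the shares were 15.7%, 23.9%, 35.4% and 40.8%. The lowest band held 3979 of the other genes and 19 of the members. The members' share was higher in each band, and the distance was smallest in the highest band. Over the whole range the interquartile range was 0.70 for members and 0.71 for the other genes. Within the bands it was 0.63, 0.96, 0.27 and 0.67 for members and 0.66, 0.71, 0.73 and 0.81 for the other genes.

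**Figure D3:**
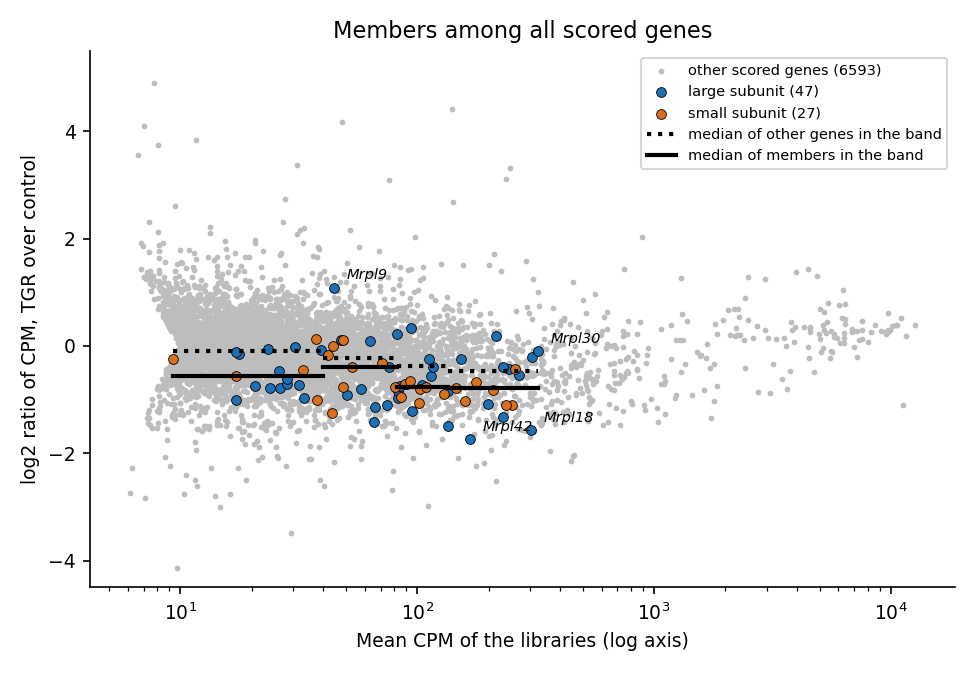
The log2 ratio of CPM in TGR over control (y axis) against the mean CPM of both libraries (x axis, log scale) for all scored genes in grey and members in blue (large) and orange (small), with the medians of members (solid) and other genes (dotted) in 4 bands. The solid line lies under the dotted line in each band (−0.55 against −0.09, −0.39 against −0.22, −0.76 against −0.37 and −0.78 against −0.47 from the lowest band to the highest), and 2 genes fall outside the y axis.

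Gene annotation bears on some single values. A protein-coding gene overlaps 26 of the 77 members. Whether the counting used strand is not given in the sources used here, so it is not known whether reads of such a pair were kept apart. Tcp1, a subunit of the cytosolic chaperonin that overlaps Mrpl18 on the opposite strand, had 281 CPM in control and 208 CPM in TGR (−0.43), a smaller difference than that of Mrpl18. Mrpl46 and Mrps11, both members, overlap each other and had log2 ratios of −0.97 and −0.77. Named pseudogenes exist for Mrpl23, Mrpl48 and Mrps36, whose values are uncertain to the extent that reads were shared with them. Only pseudogenes named after a member were searched, so copies of other members under other names may exist.

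The libraries differed in their cells' cycle calls, so the members were also compared within phases. Phases were called from 43 S and 54 G2M genes, none of them a member, at 1500 UMIs drawn from each cell, for which 91 control and 0 TGR cells were too shallow. Of the control cells called, 332 (10.9%) were in G1, 353 (11.6%) in S and 2351 (77.4%) in G2M. Of the TGR cells 1448 (56.9%), 266 (10.4%) and 832 (32.7%) were. These calls rest on relative expression scores, with the cells of both libraries scored together. They do not measure the share of cells in a phase.

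Within each phase most members lay below a ratio of 1, 63 of 74 in G1, 66 in S and 65 in G2M. In G1 34 of 74 were lower and 1 higher, with 19.5% lower and 7.93% higher among all genes, and medians of −0.58 and −0.13. In S 39 were lower and 1 higher (all genes 17.2% and 9.54%), with medians of −0.60 and −0.09. In G2M 47 were lower and 1 higher (all genes 22% and 11.6%), with medians of −0.77 and −0.11. Under phases called on all UMIs without thinning, the G1 median of members was −0.27, and that of all genes −0.11.

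Of the 42 members lower over all cells, 29 were lower in each of the 3 phases. Mrpl42 had log2 ratios of −1.61 in G1, −1.47 in S and −1.88 in G2M. Mrpl18 had −1.70, −1.36 and −1.48. The single higher member was Mrpl9 each time, with 32.5 CPM in control and 56.8 CPM in TGR in G1 (0.80), 22.7 and 42.3 CPM in S (0.89) and 28.7 and 70.1 CPM in G2M (1.29).

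Among the 73 members scored in every phase, 57 lay below a ratio of 1 in all of them and 5 above (Mrpl9, Mrpl24, Mrpl32, Mrpl52 and Mrps35). On totals without ribosomal protein and mitochondrial genes all ratios within a phase lie higher. The G2M ratio was below the G1 ratio in 55 of the 73.

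Within a library few members passed 1.5-fold between phases called at equal depth. In control, S over G1, 0 members were lower and 2 higher of 75 (all genes 2.5% and 3.97%), and in G2M over G1 0 were lower and 0 higher (2.38% and 5.7%). The medians were 0.09 and 0.06, beside 0.06 and 0.06 for all genes. With phases called on all UMIs they were 0.45 and 0.33, beside 0.13 and 0.17. Those 2 were Mrps22 and Mrpl19, which rest on 16 and 34 UMIs in G1.

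In G2M over G1 of control the highest members were Mrps22 (0.62), Mrpl19 (0.53), Mrpl55 (0.38) and Mrpl13 (0.38). The lowest were Mrps31 (−0.38), Mrpl32 (−0.34), Mrps6 (−0.34) and Mrpl37 (−0.32). Mrps31 rests on 13 UMIs in G1 and 99 in G2M. None of these 8 was called at 1.5-fold.

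In TGR, S over G1, 2 members were lower and 0 higher of 73 (all genes 1.86% and 9.3%), with a median of 0.02. These were Mrpl47 with 146 UMIs in G1 and 16 in S (−0.98) and Mrpl39 with 171 and 23 (−0.69). In G2M over G1 5 were lower and 0 higher of 73 (2.68% and 8.74%), with a median of −0.09 beside 0.04 for all genes. They were Mrpl47 (−0.84), Mrps34 (−0.67), Mrps18b (−0.65), Mrpl38 (−0.63) and Mrpl36 (−0.60). In TGR 53 members lay below a ratio of 1 in this comparison, and in control 30. Whether the phases differ between the libraries in this was not tested.

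Cell by cell, the members took a median of 0.910% of a control cell's UMIs (quartiles 0.767% and 1.06%) and 0.593% of a TGR cell's (0.512% and 0.692%). In the cells called G1, S and G2M the medians were 0.857%, 0.934% and 0.917% in control and 0.605%, 0.623% and 0.567% in TGR. The ranges between the quartiles of control and TGR did not overlap in any of the 3 phases. At 1500 UMIs per cell a median of 12 members was detected in a control cell and 8 in a TGR cell, with a mean of 13.6 and 9.13 member UMIs.

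The shares did not rise or fall steadily with depth per cell in either library, but the ratio between the libraries was ordered by it. In terciles of UMIs per cell, set over both libraries at 3949 and 6355 UMIs, the medians from the shallowest to the deepest cells were 0.866%, 0.949% and 0.941% in control and 0.614%, 0.624% and 0.572% in TGR. The members' median log2 ratio was −0.45, −0.57 and −0.75 in the same order, beside −0.10, −0.16 and −0.17 for all scored genes. In that order 28 of 73, 36 of 73 and 45 of 74 scored members were lower, against 19.0%, 24.2% and 24.3% of all genes. The quartiles of the shares overlapped in the shallowest tercile (0.700% in control and 0.720% in TGR). The part of depth in these ratios was not tested.

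**Figure D4:**
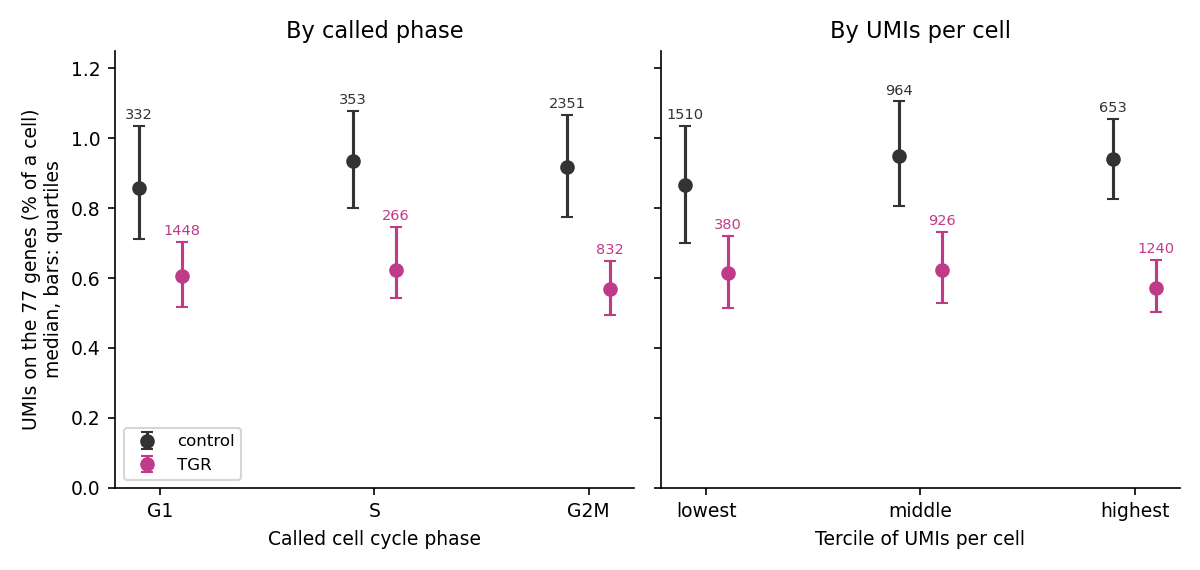
The share of a cell's UMIs on the 77 members (y axis, percent; point, median; bars, quartiles) in control (black) and TGR (pink), by called phase (left) and by terciles of UMIs per cell (right), with the number of cells above each point. Control medians lie between 0.857% and 0.949% and TGR medians between 0.567% and 0.624%.

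The genes that work with the mitochondrial ribosome were read from fixed lists. Of 6 scored mitoribosomal proteins with other symbols 3 were lower and the median was −0.56, beside 21.8% lower and −0.16 over all scored genes. The lower ones were Chchd1 (216 CPM in control and 122 CPM in TGR, −0.83), Aurkaip1 (286 and 180 CPM, −0.67) and Gadd45gip1 (230 and 149 CPM, −0.63). Ptcd3 (−0.49), Ict1 (−0.26) and Dap3 (−0.15) were neither lower nor higher.

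The next lists are given beside the 21.8% lower and the median of −0.16 over all scored genes. Of 10 scored translation factors 2 were lower, with a median of −0.21. They were Tufm, the mitochondrial elongation factor Tu (−0.76), and Tsfm, its exchange factor (−0.60). Oxa1l, which inserts new chains into the inner membrane, had 38.5 and 40.3 CPM (0.07). Slirp, which protects mitochondrial messages together with Lrpprc, had 139 and 116 CPM (−0.26).

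Of 7 scored mitochondrial aminoacyl-tRNA synthetases 2 were lower (Yars2 at −0.76 and Sars2 at −0.62), and the median was −0.32. Fars2 (0.57) and Iars2 (0.27) lay above a ratio of 1. Among 13 scored assembly factors 1 was lower (Mpv17l2, −0.65) and 1 higher, Rpusd4, a pseudouridine synthase of the mitochondrial ribosomal RNA, with 14.2 CPM in control and 26.5 CPM in TGR (0.90). Their median was −0.10, near that of all genes.

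The list of mitochondrial protein import genes had 15 of 24 scored genes lower and a median of −0.69, beside 21.8% and −0.16 over all scored genes. Which of its genes serve the import of the members was not sorted out. Of the 13 mitochondrially encoded messages, the templates of this ribosome, 3 were lower (mt-Nd1, mt-Nd2 and mt-Nd6). Their median was −0.22, a share and a median near those of all scored genes. The cell filter set a limit on the UMIs of these same genes and removed 209 control but 2 TGR barcodes. Their ratios therefore depend on the filter, and its part in them was not tested. The cytosolic ribosomal proteins differed from the members in direction, with 2 of 82 scored genes lower, 12 higher and a median of 0.28, and on totals without them they too would lie higher by the shift given above.

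**Figure D5:**
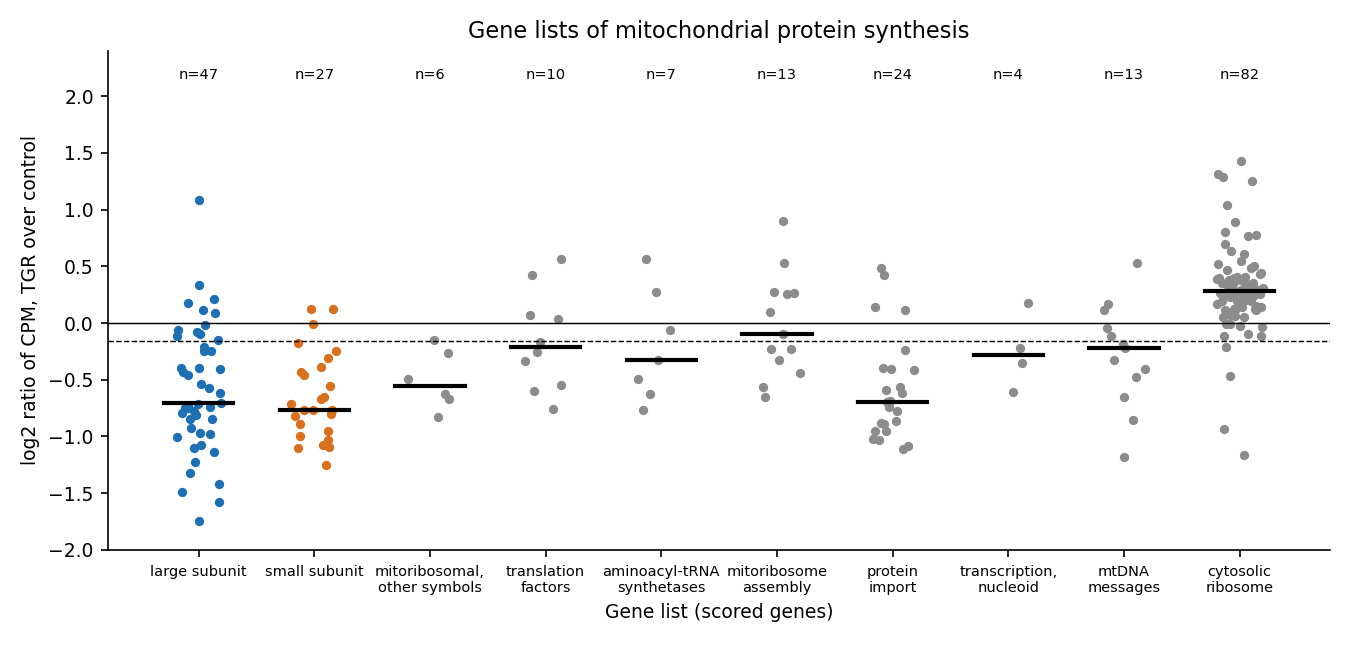
The log2 ratio of CPM in TGR over control (y axis) for the scored genes of each list (x axis, number of genes above), with bars at the medians, a solid line at 0 and a dashed line at the median of all scored genes. The medians lie at −0.70 and −0.77 for the members' subunits, −0.69 for import, −0.10 for assembly and 0.28 for the cytosolic ribosome.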

How the data were processed

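Counts were taken as the authors deposited them, as whole-number UMI counts per gene and barcode of 2 libraries made with the 10x Chromium v2 kit, per the labels. Per the submitters' processing notes, Cell Ranger 2.2, Seurat 3 and mm10 were used, without their roles. Whether barcodes had been filtered before deposit is not given in the sources used here. The members and gene lists were chosen with earlier results of these data known, and the promoter motifs after the members' values were known.

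Counts of the kept cells were summed per library and scaled to CPM. Before each log2 ratio, 0.5 UMI (in proportion to library size) was added. The 95% interval of a ratio is exact (Clopper-Pearson), from how a gene's UMIs divide between the libraries. Such intervals cover counting error only, and PCR or culture error is not in them. The script was tested on simulated data. Phases came from scanpy 1.11.5. No doublet caller was run, and the 5% deepest cells were left out as an alternative. Alternatives also covered totals without ribosomal protein and mitochondrial genes, size factors by DESeq2 1.42.0 and TMM by edgeR 4.0.16, the count filter, the fold and the thinning. Coordinates are from GENCODE M21 (GRCm38), which matched all 77 members, and promoter sequences from RefSeq (GRCm38.p6). RefSeq starts lay within 50 bases of the GENCODE start for 44 of 68 members.

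Named members are the 8 lowest and 8 highest ratios, the 10 of highest mean CPM, the 4 highest and 4 lowest in G2M over G1 of control with at least 100 UMIs, the Mrps18 family, the stalk, those whose symbol and place differ, and any called in a direction shared by 5 or fewer. From 4 of the lists the 2 largest absolute ratios and the 2 highest CPM were eligible. Others named for a count of 5 or fewer, a promoter match or an overlap were chosen after their values were seen.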

Additional observations from a re-analysis of the deposited data

How the results depend on the processing

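Of 80 values recomputed under other settings, 2 changed sign and 20 moved beyond the limit set (for counts, 1.5 times the main count). The other 58 stayed within it, though not always near the main value, as with 28 members lower in the lowest tercile of UMIs per cell and a median of S over G1 in TGR of 0.055 with phases called on all UMIs. Without ribosomal protein and mitochondrial genes in the totals, 22 members were lower and 2 higher, the members' median was −0.45, the summed ratio −0.40, and the subunit medians −0.44 (large) and −0.45 (small). The medians were then −0.34 in G1, −0.36 in S and −0.52 in G2M, and the medians of G2M over G1 in control (−0.011) and S over G1 in TGR (−0.019) changed sign. At 2-fold 15 of 74 members were lower and 1 higher, beside 7.87% lower and 3.31% higher over all scored genes. With each cell thinned to 1500 UMIs the median was −0.59, that of the large subunit −0.46, that in G1 −0.43 and that in S −0.49. In the lowest tercile of UMIs per cell the median was −0.45 and the summed ratio −0.50, and in the middle tercile the median was −0.57. With phases called on all UMIs, the median in G1 was −0.27, and in control that of G2M over G1 was 0.33 and that of S over G1 0.45. The cause of these moves was not tested. Leaving out barcodes found in both libraries, an alternative chosen after seeing the data, moved none of its 4 values. No paired analysis was possible because each condition has 1 library. With 1 library per condition, no setting speaks to the spread between cultures.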

Other observations

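A protein-coding gene starts within 1000 bases of 18 members on the opposite strand, pointing away from them. In 9 of these pairs both genes were scored. Among these, 5 members were lower, and 4 neighbours were lower and 2 higher, beside 21.8% lower over all scored genes. In 2 pairs both were lower, a count too small to read as a link within pairs. These were Mrps12 with Sars2 (−1.07 and −0.62), the mitochondrial seryl-tRNA synthetase, and Mrpl40 with Hira (−0.84 and −0.84), a histone chaperone. Mrpl32 (0.34) and its neighbour Psma2 (−1.34), a proteasome subunit, lay on either side of a ratio of 1. Psma2 had 332 CPM in control and 131 CPM in TGR. Mrpl49 (−0.74) and Fau (0.69), which encodes a cytosolic ribosomal protein, lay on either side in the other order, as did Mrpl41 (−1.14) and Pnpla7 (1.02). These pairs were chosen after their values were seen, and no test was run.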
